A study of Mus musculus with 24 samples.

Results

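Cyclic AMP and cyclic GMP are second messengers whose levels depend on the cyclases that make them and on the phosphodiesterases that break them down. All genes of the expression table named Pde with a family number from 1 to 11 and a single letter, or Adcy with a number, were taken, a rule on names alone. They were 34 of the 24532 genes, 24 phosphodiesterase genes and 10 adenylyl cyclase genes. RNA-seq covered 4 tissues, namely the liver, the inguinal white fat depot (iWAT), the gastrocnemius as skeletal muscle (GM) and the hypothalamus, of C57BL/6 mice fed chow, with an age of 8 weeks in the labels. Control mice (Ctrl) carried Crif1flox/flox, and LKO mice carried Alb-Cre;Crif1flox/flox, so that both groups held the loxP-flanked Crif1 alleles and the LKO mice also held Cre. The albumin promoter drives Cre in hepatocytes, and the Crif1 product is part of the mitochondrial ribosome. Each of the 8 groups had 3 libraries, 24 in all. Nothing in the labels said whether these came from separate mice or whether tissues came from the same mice, so p-values measured only the spread between libraries.

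Adenylyl cyclases turn ATP into cAMP when a receptor couples to the stimulatory G protein. Glucagon in liver and noradrenaline at beta-adrenergic receptors in fat and muscle act in this way. The cyclases differ in what tunes them. Adcy1, Adcy3 and Adcy8 encode enzymes stimulated by calcium and calmodulin, while Adcy5 and Adcy6 encode enzymes inhibited by calcium. Adcy2, Adcy4 and Adcy7 encode enzymes regulated by G protein beta-gamma subunits, Adcy9 an enzyme that responds weakly to forskolin, and Adcy10 the soluble enzyme activated by bicarbonate. Phosphodiesterases end the signal. The families PDE4, PDE7 and PDE8 hydrolyse cAMP, the families PDE5, PDE6 and PDE9 hydrolyse cGMP, and the families PDE1, PDE2, PDE3, PDE10 and PDE11 hydrolyse both. In adipocytes PDE3B is known as an enzyme through which insulin lowers cAMP and restrains lipolysis. Pde6d, Pde6g and Pde6h encode small subunits with no catalytic activity, of which the Pde6d product also carries prenylated proteins.

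Sequencing depth ran from 4.45 to 8.09 Gb per library with a median of 5.19 Gb. Levels are given as FPKM, fragments scaled by transcript length and library size, which allows levels of different genes to be set side by side. Crif1, listed as Gadd45gip1, had 12.5 to 14.6 FPKM across Ctrl livers and 2.0 to 5.4 FPKM across LKO livers, while the ranges of both genotypes overlapped in each other tissue. Differences are on the log2(FPKM + 1) scale as LKO minus Ctrl with their standard error (SE), from limma, and understate the change of genes near 1 FPKM. A gene was tested in a tissue where 3 or more of the 6 libraries reached 1 FPKM. The unadjusted criterion asked for a difference of 1.5-fold or more with p under 0.05. The adjusted criterion asked for the same fold and for p under 0.05 after Benjamini-Hochberg adjustment across every gene tested in that tissue. The median difference of all genes tested was 0.33 in liver, and between -0.03 and -0.01 in iWAT, GM and hypothalamus. In whole tissue, a change in the number of cells of a type cannot be told apart from a change in RNA per cell.

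Among Ctrl tissues, the hypothalamus held the widest set of these genes, iWAT was dominated by Pde3b, Adcy5 and Adcy6, GM by the PDE4 genes, and liver by Pde4c, Pde9a and Pde3b. Of the 34 genes, 26 were tested across the 12 Ctrl libraries. The limma F test over the 4 tissues passed an adjusted p of 0.05 for each of the 26, as for 99.0% of all 15320 genes tested. A gene was called highest in a tissue where it was at least 2-fold above each of the 3 others with an adjusted p under 0.05 in each contrast. This held for 9 of the 26 in hypothalamus (23.5% of all genes tested), 2 in GM (4.61%), 1 in iWAT (8.78%) and 1 in liver (6.43%). The other 13 were not called highest in any tissue.

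**Figure D1:**
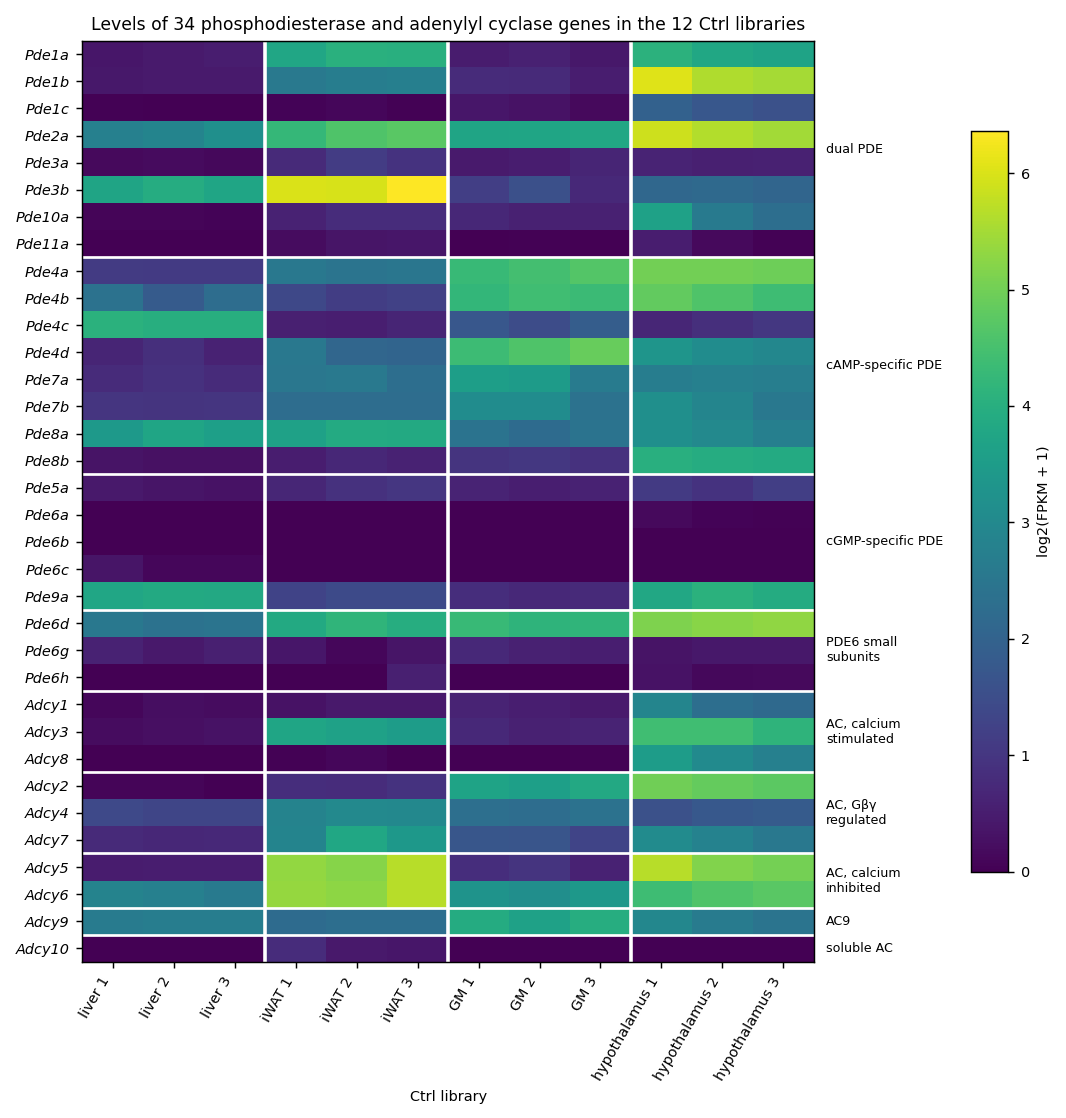
Levels of the 34 genes as log2(FPKM + 1), in colour, in the 12 Ctrl libraries (columns, 3 per tissue), with genes (rows) grouped by the role of the enzyme. Pde3b was brightest in iWAT, Pde4a, Pde4b and Pde4d in GM and hypothalamus, and Pde4c in liver, and the PDE6 catalytic genes Pde6a, Pde6b and Pde6c stayed near 0 throughout.

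In the Ctrl hypothalamus, the 9 genes called highest were Pde1b, Pde2a, Pde6d, Adcy2, Pde8b, Adcy8, Pde10a, Adcy1 and Pde1c. Pde1b, which encodes a calmodulin-dependent enzyme abundant in striatal neurons, read 65.6, 47.6 and 44.7 FPKM in the 3 libraries, against a mean of 5.36 FPKM in iWAT, the tissue next in order. Pde2a, the cGMP-stimulated phosphodiesterase, read 57.4, 48.4 and 43.7 FPKM. In both genes library 1 was the highest of the 3. The calcium-stimulated Adcy8 had a mean of 7.80 FPKM in hypothalamus and was listed below 0.1 FPKM in every library of the other tissues. Pde8b, which encodes a high-affinity cAMP phosphodiesterase, had a mean of 14.5 FPKM there and under 1 FPKM in each other tissue.

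Several genes had a second tissue close to the first. Pde9a, which encodes a cGMP phosphodiesterase of very high affinity, had a mean of 14.3 FPKM in hypothalamus and 13.2 FPKM in liver, a log2 difference of 0.10 ± 0.08 (SE, n = 3 per tissue) with an adjusted p of 0.25 by limma. Its means in iWAT and GM were 1.61 and 0.71 FPKM. Adcy5, the main cyclase of striatal neurons, averaged 41.5 FPKM in iWAT and 38.9 FPKM in hypothalamus, which did not differ beyond their spread (adjusted p = 0.57, limma), and lay below 1 FPKM in GM and liver. Pde1a followed the same order, with means of 14.5 FPKM in iWAT and 13.6 FPKM in hypothalamus (adjusted p = 0.48, limma). Pde4b stood at 23.5 FPKM in hypothalamus and 19.1 FPKM in GM (adjusted p = 0.10, limma). These 4 genes were singled out after their values were seen.

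In iWAT, Pde3b reached 62.6, 62.2 and 81.3 FPKM in the Ctrl libraries, the highest Ctrl mean of the 34 genes over the 4 tissues. It exceeded liver, the next tissue at 13.0 FPKM, by 2.31 ± 0.17 on the log2 scale (SE, adjusted p = 1.4e-07, limma). Adcy6 and Adcy5 had means of 42.5 and 41.5 FPKM, and made up 34.3% to 37.8% and 32.3% to 37.8% of the summed adenylyl cyclase FPKM of the iWAT Ctrl libraries. Adcy4, which endothelial cells are known to express, had its highest mean in iWAT at 6.64 FPKM, less than 2-fold above GM at 4.03 FPKM. Adcy7, a cyclase known from immune cells, also had its highest mean there at 9.55 FPKM, and its Ctrl libraries were far apart at 6.34, 12.9 and 9.44 FPKM. The summed level of the 7 macrophage markers in the same libraries was 121.1, 329.0 and 187.9 FPKM, in the same order. In the LKO libraries Adcy7 read 6.60, 5.72 and 7.55 FPKM and the markers 120.1, 130.9 and 175.3 FPKM, not in the same order. The part of macrophages in the Adcy7 level was not tested.

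In GM, Pde4d had a Ctrl mean of 23.8 FPKM, Pde4a 21.1 FPKM and Pde4b 19.1 FPKM. All 3 belong to the family of rolipram-sensitive cAMP phosphodiesterases, many forms of which are anchored beside their targets. The Pde4d libraries read 19.5, 23.5 and 28.3 FPKM, and the gene exceeded hypothalamus, the next tissue, by 1.5 ± 0.16 on the log2 scale (SE, adjusted p = 3.1e-06, limma). Adcy9 was likewise called highest in GM, with a mean of 13.4 FPKM against 5.47 and 5.45 FPKM in hypothalamus and liver. Adcy2, with a mean of 12.1 FPKM in GM, was above iWAT and liver but below hypothalamus. The 8 phosphodiesterase genes specific for cAMP held between 82.6% and 84.0% of the summed FPKM of the 21 catalytic phosphodiesterase genes in the GM Ctrl libraries.

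The Ctrl liver held the lowest summed levels of the 4 tissues, 67.7 ± 2.0 FPKM (SD, n = 3) for the 21 catalytic phosphodiesterase genes and 14.2 ± 0.4 FPKM (SD, n = 3) for the 10 adenylyl cyclase genes. Pde4c, the PDE4 gene with the lowest level in the Ctrl hypothalamus, read 15.6, 14.9 and 14.8 FPKM in liver and was the single gene called highest there. It exceeded GM, the next tissue, by 2.31 ± 0.11 on the log2 scale (SE, adjusted p = 2.2e-09, limma). Pde9a and Pde3b followed at 13.2 and 13.0 FPKM, then Pde8a at 11.04 FPKM and Pde2a at 6.70 FPKM. Adcy6 and Adcy9, at 5.70 and 5.45 FPKM, were the leading cyclases.

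**Figure D2:**
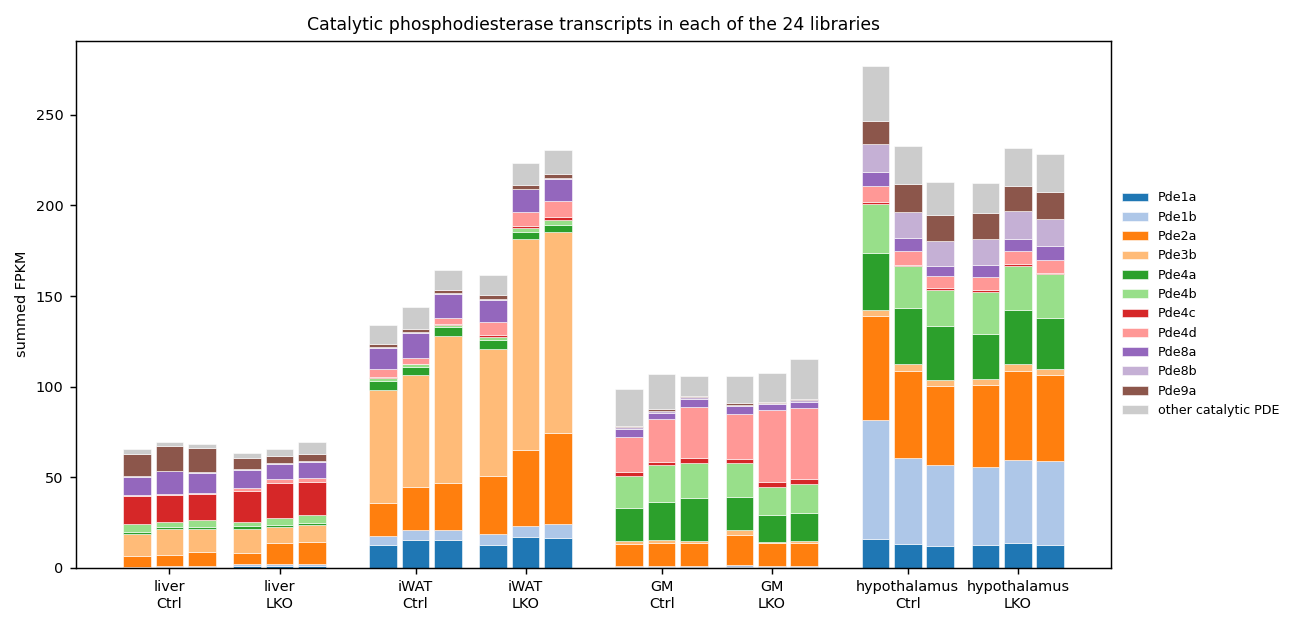
Summed FPKM of the 21 catalytic phosphodiesterase genes in each of the 24 libraries, stacked by gene, with the genes that never reached a Ctrl mean of 10 FPKM pooled in grey. The Pde9a segment was smaller in the 3 LKO livers than in the 3 Ctrl livers, and iWAT LKO libraries 2 and 3 stood taller than the 3 iWAT Ctrl libraries, mostly through Pde3b and Pde2a.

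The remaining genes were low. The photoreceptor phosphodiesterases Pde6a, Pde6b and Pde6c did not exceed 0.11, 0.02 and 0.30 FPKM in any of the 24 libraries, and Pde6b was listed at 0 in 20 of them. The small subunits Pde6g and Pde6h peaked at 0.85 and 0.47 FPKM, whereas Pde6d was above 1 FPKM in all 24 libraries with a maximum of 38.5 FPKM. Pde11a peaked at 0.41 FPKM. Pde3a, the cardiovascular relative of Pde3b, exceeded 1 FPKM in 4 libraries with a maximum of 1.68 FPKM. The soluble cyclase Adcy10 exceeded 1 FPKM in a single library, iWAT LKO 1, at 1.61 FPKM.

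In liver, where Crif1 was deleted, Pde9a was the only gene of the family called lower in LKO with the deposited FPKM. The means of Pde3b and Pde8a, among others, were also lower, short of both criteria. Adcy7 and Pde4d were higher past the adjusted criterion. No Ctrl liver reached 1 FPKM of either, so that they were tested only through the group where they were high. Pde4d passed under neither median-ratio scaling nor quantile normalization, and Adcy7 did not pass with quantile normalization. Pde9a fell from a mean of 13.2 FPKM to 4.46 FPKM, 2.96-fold, while the PDE4 gene that dominates the tissue, Pde4c, was 1.204-fold the Ctrl mean. Of the 34 genes, 14 were tested, and 3 of these entered only through the LKO libraries, with no Ctrl library at 1 FPKM. Higher in LKO were 3 of the 14 past the unadjusted criterion, where 25.2% of all genes tested were, and 2 past the adjusted criterion, where 23.9% were. Lower was 1 of the 14 by both criteria, against 3.75% and 3.5% of all genes. The median difference of the 14 was 0.26 beside 0.33 for all genes tested. The 3 LKO livers all lay above the 3 Ctrl livers in 8 of the 14 (53.0% of all genes tested) and below them in 1 (8.1%).

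Ctrl livers had 12.6, 13.6 and 13.4 FPKM of Pde9a, and LKO livers had 5.95, 3.73 and 3.70 FPKM. The groups were far apart, and LKO library 1 was the least reduced. The difference was -1.40 ± 0.17 (SE, n = 3 per group) on the log2 scale with an adjusted p of 0.0019 by limma, or -1.73 relative to the median of all genes. The genes specific for cGMP held 20.1% to 20.2% of the summed phosphodiesterase FPKM in the Ctrl livers and 7.77% to 10.3% in the LKO livers. The total itself was 67.7 ± 2.0 FPKM in Ctrl and 66.1 ± 2.8 FPKM in LKO (SD, n = 3 each). The summed level of the 6 hepatocyte markers ran from 56550 to 59430 FPKM in Ctrl and from 41990 to 68950 FPKM in LKO, with overlap. Of the 6, 2 were lower in every LKO liver than in every Ctrl liver and 0 were higher, where 8.1% of all genes tested were lower, and the part of hepatocytes in the Pde9a level was not tested. In the files' mm10 coordinates Pde9a lies at chr17:31386234-31476309 on the plus strand.

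Adcy7 read 0.69, 0.64 and 0.67 FPKM in Ctrl and 1.98, 1.80 and 2.47 FPKM in LKO. Pde4d read 0.57, 0.81 and 0.53 FPKM in Ctrl and 1.34, 2.09 and 2.30 FPKM in LKO. Neither gene's groups overlapped, and both genes were about 3-fold higher by their means yet low in absolute terms, and both passed the filter on low values through the LKO libraries alone. The log2 differences were 0.88 ± 0.11 for Adcy7 (SE, adjusted p = 0.0022, limma) and 0.82 ± 0.15 for Pde4d (SE, adjusted p = 0.0076, limma), or 0.55 and 0.49 relative to the median of all genes. Beside them, 7 of 7 macrophage and Kupffer cell markers were higher in every LKO liver than in every Ctrl liver, as were 53.0% of all genes tested. Their summed level ran from 110.5 to 114.5 FPKM in Ctrl and from 244.0 to 399.2 FPKM in LKO, and 6 of 6 monocyte and neutrophil markers were likewise higher, their sum going from between 1.85 and 2.25 FPKM to between 10.7 and 13.5 FPKM. The part of these cells in the Adcy7 and Pde4d levels was not tested.

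Pde6d passed the unadjusted criterion alone. Its Ctrl livers read 4.81, 4.24 and 4.45 FPKM and its LKO livers 5.82, 5.86 and 11.4 FPKM, so the groups did not overlap but LKO library 3 set the size of the difference, 0.60 ± 0.24 (SE, adjusted p = 0.071, limma). Without LKO library 3 it was 0.32, and without Ctrl library 1, 2 or 3 it was 0.64, 0.57 and 0.60, each short of the criterion. Pde2a, named after its values were seen, read 5.88, 6.29 and 7.94 FPKM in Ctrl and 5.93, 11.4 and 12.01 FPKM in LKO, with overlap through LKO library 1. Without that library its difference of 0.44 became 0.73 (adjusted p = 0.0018, limma). The 8 endothelial markers summed to 48.3, 42.3 and 43.2 FPKM in Ctrl and 53.5, 72.3 and 87.7 FPKM in LKO, and their part in the Pde2a level was not tested.

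Scaling mattered for the direction of the liver counts. With median-ratio scaling in place of the deposited FPKM, 1 of the 14 genes was higher and 3 were lower by the adjusted criterion, with Pde3b and Pde8a joining Pde9a, and with quantile normalization 0 were higher and 2 were lower. The shares of all genes moved as well, to 8.99% higher and 8.53% lower with median-ratio scaling and to 8.21% and 6.81% with quantile normalization. Adcy7 no longer passed with quantile normalization, at 0.45, and Pde4d with neither scaling, at 0.58 and 0.37. Pde6d passed no criterion with either scaling, and its difference ran from 0.21 to 0.76 over 15 alternatives. Pde9a passed the adjusted criterion under each of its 15 alternatives, from -1.796 to -1.31. For Pde3b, the insulin-regulated phosphodiesterase, the livers read 12.2, 14.4 and 12.4 FPKM in Ctrl and 13.3, 8.79 and 9.39 FPKM in LKO, a log2 difference of -0.30 ± 0.16 (SE, adjusted p = 0.16, limma) as deposited. For Pde4c they read 15.6, 14.9 and 14.8 FPKM in Ctrl and 17.4, 19.4 and 17.8 FPKM in LKO, at 0.25 ± 0.10 (SE, adjusted p = 0.070, limma), and at -0.17 with median-ratio scaling. Adcy6 and Pde7a, singled out after their values were seen, had adjusted p values of 0.024 and 0.037 by limma at differences of 0.42 and 0.37, below the fold limit, and Pde7a was another gene tested only through the LKO livers.

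A further 18 genes were listed above 0 in liver without passing the filter. In 9 of these the 3 LKO libraries all lay above the 3 Ctrl libraries, which was so for 29.8% of all such genes, and 0 lay below, which was so for 3.23%. Pde1a read 0.31, 0.37 and 0.43 FPKM in Ctrl and 1.150, 1.02 and 0.88 FPKM in LKO. Pde1b read 0.32, 0.38 and 0.37 FPKM in Ctrl and 1.04, 0.97 and 1.02 FPKM in LKO. Both encode calmodulin-dependent enzymes and stood close to 3-fold higher at levels around 1 FPKM. Pde5a, the sildenafil-sensitive cGMP phosphodiesterase of vascular smooth muscle, read 0.35, 0.28 and 0.25 FPKM in Ctrl and 0.38, 1.22 and 3.13 FPKM in LKO, a spread of the LKO group that came with summed smooth muscle markers of 14.4, 19.8 and 24.7 FPKM in the same libraries. That list lay between 6.66 and 8.61 FPKM in Ctrl, and its part in the Pde5a level was not tested. These 3 genes were named after their values were seen.

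**Figure D3:**
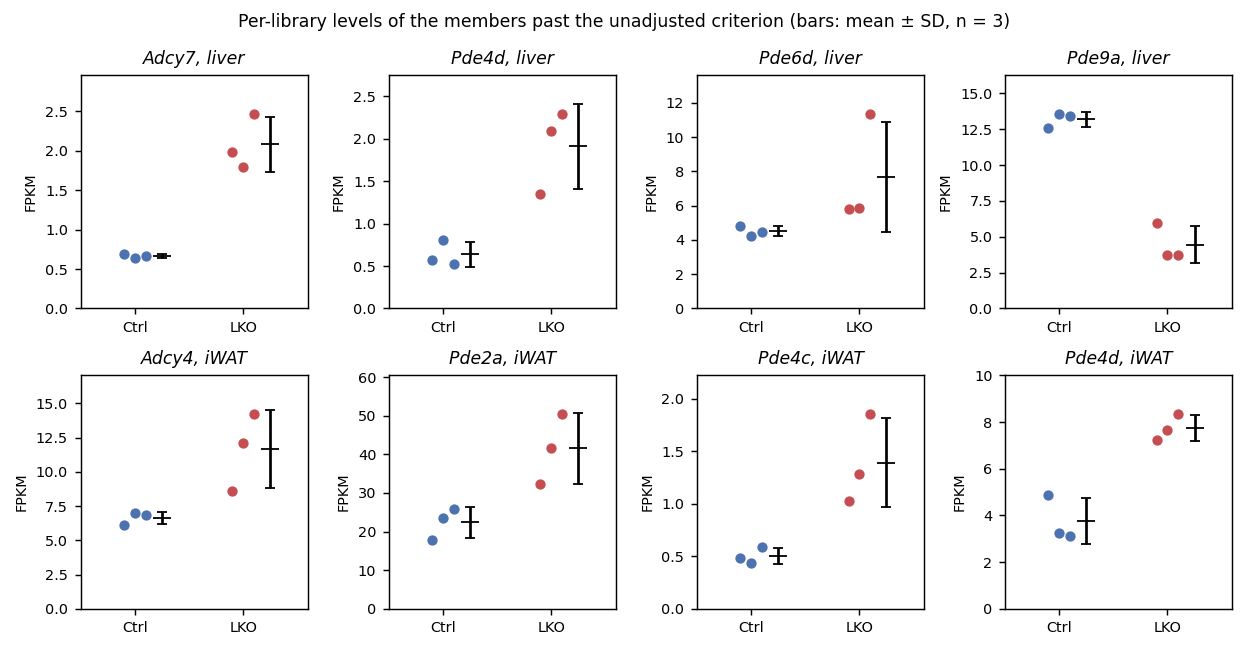
FPKM in each Ctrl (blue) and LKO (red) library for the 8 gene and tissue pairs past the unadjusted criterion, with the mean ± SD of 3 libraries as a black bar and each axis starting at 0. Pde9a in liver was the 1 pair with LKO below Ctrl, and in none of the 8 did the groups overlap.

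In iWAT, outside the tissue where the albumin promoter acts, Pde4d, Pde2a, Adcy4 and Pde4c were higher in LKO mice than in Ctrl mice past the unadjusted criterion, by 1.75-fold to 2.77-fold of their means. None passed the adjusted criterion, and no gene of the 12288 tested in iWAT did. The 4 were among 21 genes of the family tested, where 1.95% of all genes tested were higher by the same criterion, and 0 of the 21 were lower, against 1.29% of all genes. Of the 4, Pde4c was tested only through the LKO libraries. At p under 0.05 alone there were 7 of 21, beside 15.0% of all genes tested. The median difference of the 21 was 0.21 beside -0.01 for all genes. In 8 of the 21 the 3 LKO libraries all lay above the 3 Ctrl libraries (9.76% of all genes tested) and 0 lay below (11%). Of 11 further genes listed above 0 without passing the filter, 0 lay above (8.4%) and 0 below (3.38%).

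Pde4d in iWAT read 4.87, 3.27 and 3.13 FPKM in Ctrl and 7.24, 7.65 and 8.35 FPKM in LKO, about 2-fold higher with no overlap. The log2 difference was 0.90 ± 0.15 (SE, adjusted p = 0.093, limma). Pde4c, at 0.48, 0.44 and 0.59 FPKM in Ctrl and 1.03, 1.29 and 1.86 FPKM in LKO, was low in both groups and passed the filter through the LKO libraries alone, with a difference of 0.66 ± 0.14 (SE, adjusted p = 0.13, limma).

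Pde2a in iWAT read 17.9, 23.5 and 25.8 FPKM in Ctrl and 32.3, 41.7 and 50.5 FPKM in LKO, a difference of 0.85 ± 0.19 (SE, adjusted p = 0.14, limma). Adcy4 read 6.13, 6.96 and 6.82 FPKM in Ctrl and 8.61, 12.1 and 14.2 FPKM in LKO, a difference of 0.70 ± 0.17 (SE, adjusted p = 0.15, limma). In both genes every LKO library exceeded every Ctrl library, LKO library 3 was the highest and LKO library 1 the lowest of its group. Endothelial cells are known to express both genes. The summed level of the 8 endothelial markers was 187.9, 211.6 and 211.9 FPKM in Ctrl and 263.8, 272.7 and 335.6 FPKM in LKO, with 6 of the 8 markers higher in every LKO library (9.76% of all genes tested). The 6 smooth muscle markers summed to between 62.3 and 81.1 FPKM in Ctrl and between 88.1 and 120.9 FPKM in LKO. The part of these cells in the Pde2a and Adcy4 levels was not tested.

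**Figure D4:**
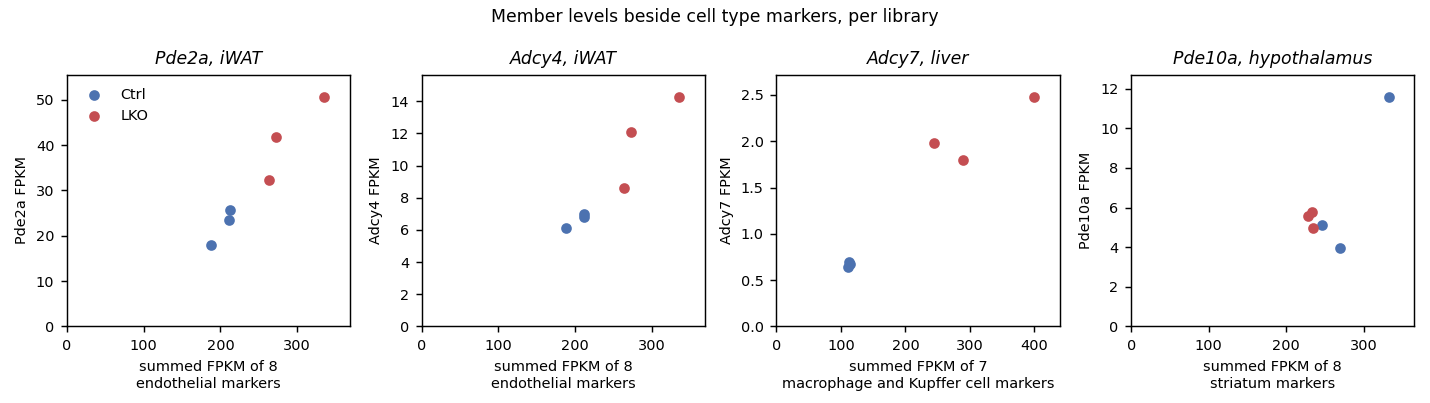
FPKM of a gene (vertical axis) against the summed FPKM of a marker list (horizontal axis) in each of 6 libraries, Ctrl in blue and LKO in red, both axes from 0. Pde2a and Adcy4 are set beside endothelial markers in iWAT, Adcy7 beside macrophage and Kupffer cell markers in liver, and Pde10a beside striatum markers in hypothalamus, where the single point at the upper right is Ctrl library 1.

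The 3 most abundant members of iWAT did not pass. Pde3b read 62.6, 62.2 and 81.3 FPKM in Ctrl and 70.1, 116.7 and 110.8 FPKM in LKO, with overlap and a difference of 0.50 ± 0.21 (SE, adjusted p = 0.34, limma). LKO library 1 lay among the Ctrl libraries, and without it the difference was 0.73, past the unadjusted criterion. Adcy6 differed by 0.25 ± 0.13 (SE, adjusted p = 0.42, limma). Adcy5 lay just outside the fold limit, at 39.0, 35.7 and 49.9 FPKM in Ctrl and 60.2, 62.9 and 60.8 FPKM in LKO, a difference of 0.56 ± 0.13 (SE, adjusted p = 0.13, limma), with no overlap. Without Ctrl library 3 both Adcy5, at 0.70, and Pde3b, at 0.63, passed the unadjusted criterion. The summed adenylyl cyclase FPKM was 117.1 ± 12.8 in Ctrl and 148.9 ± 10.7 in LKO (SD, n = 3 each). White adipocyte markers summed to between 21490 and 25330 FPKM in Ctrl and between 26600 and 27860 FPKM in LKO. Of the 6 markers, 3 were higher in every LKO library (9.76% of all genes tested) and 1 was lower (11%). Brown adipocyte markers summed to 572.4, 346.5 and 174.9 FPKM in Ctrl and 674.3, 506.7 and 858.4 FPKM in LKO, with overlap. Of the 8 markers, 2 were higher in every LKO library (9.76% of all genes tested) and 0 were lower (11%). The part of adipocytes in the levels of this family was not tested.

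Leaving out iWAT LKO library 3 ended the calls of Adcy4 and Pde4c, which left 2 of the 4. Pde4c was also lost with quantile normalization, at 0.56, which left 3. Without LKO library 1, Adcy4 passed the adjusted criterion (adjusted p = 0.047, limma). Skeletal muscle markers summed to 550.5 FPKM in iWAT Ctrl library 1 and 877.7 FPKM in LKO library 2 and to no more than 99.4 FPKM in the other 4 libraries. Without those 2 libraries the 4 genes still passed the unadjusted criterion, in a fit chosen after seeing the markers.

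**Figure D5:**
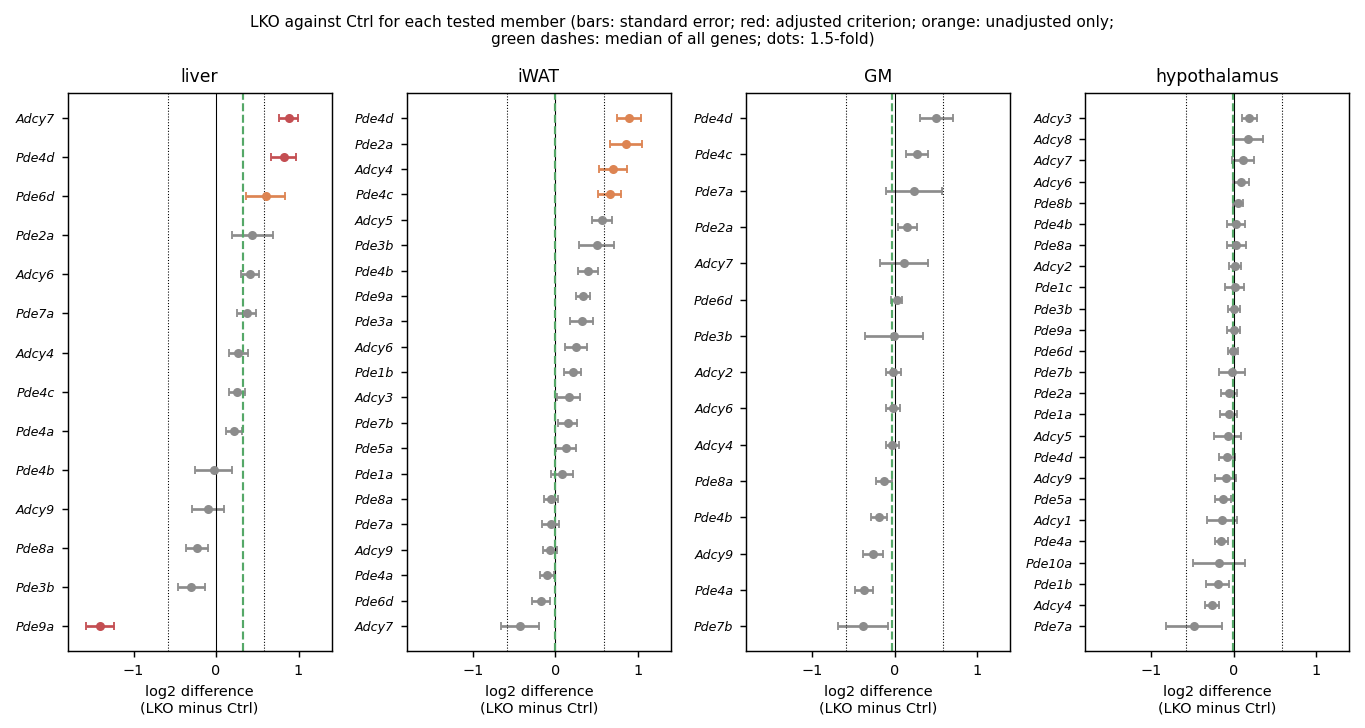
Difference of LKO minus Ctrl on the log2(FPKM + 1) scale (horizontal axis) for each tested gene of the 34 in each tissue, ordered by size, with the standard error as a bar. Red marks the adjusted criterion, orange the unadjusted criterion alone, dotted lines 1.5-fold and green dashes the median of all genes, which sits right of 0 in liver alone, and GM and hypothalamus hold no coloured point.

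The promoters of the family were read for the cAMP response element, the site of the transcription factor CREB, since cAMP is known to raise several PDE4 transcripts through it. RefSeq windows of 300 bases (GRCm38.p6, from 250 before to 50 after an annotated start) were at hand for 25 of the 34 genes, 49 windows in all. The full element TGACGTCA was found in 0 of the 25 genes and in 2.03% of all genes with a window. Its core TGACG, searched on both strands and contained in the full element, was found in 9 of the 49 windows, 18.4%, and in 20.8% of all windows. Counted by gene, where a gene with several windows has more chances, it was found in 9 of the 25 genes and in 23.0% of all genes. The 6 genes called higher in LKO liver or iWAT had 12 windows, of which 0 held the full element and 2 held the core, 1 of 3 for Adcy7 and 1 of 5 for Pde2a, while those of Adcy4, Pde4c, Pde4d and Pde6d held neither. Shown are Pde4d at chr13:108653927-108654226 on the plus strand, Pde4c at chr8:70723814-70724113 on the plus strand, and Adcy7 at chr8:88282742-88283041 on the plus strand, which is the one of its 3 windows that holds the core. Capitals mark the core, here on the reverse strand.
Pde4d: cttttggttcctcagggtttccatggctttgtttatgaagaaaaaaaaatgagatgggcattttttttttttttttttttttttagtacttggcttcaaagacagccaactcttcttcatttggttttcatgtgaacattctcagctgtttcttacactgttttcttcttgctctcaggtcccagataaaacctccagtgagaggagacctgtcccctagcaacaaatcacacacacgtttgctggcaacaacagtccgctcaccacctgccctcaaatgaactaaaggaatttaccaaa
Pde4c: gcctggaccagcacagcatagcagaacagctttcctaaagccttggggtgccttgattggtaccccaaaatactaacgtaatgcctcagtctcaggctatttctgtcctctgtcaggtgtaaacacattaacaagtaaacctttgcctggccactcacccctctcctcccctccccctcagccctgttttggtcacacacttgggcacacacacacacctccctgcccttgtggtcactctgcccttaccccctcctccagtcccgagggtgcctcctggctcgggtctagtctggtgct
Adcy7: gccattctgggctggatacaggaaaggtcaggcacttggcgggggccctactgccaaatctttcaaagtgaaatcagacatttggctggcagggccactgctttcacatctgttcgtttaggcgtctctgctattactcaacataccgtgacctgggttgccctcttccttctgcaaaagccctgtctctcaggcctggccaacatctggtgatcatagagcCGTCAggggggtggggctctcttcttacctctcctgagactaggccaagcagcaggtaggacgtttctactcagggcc
The windows of Pde4d and Pde4c hold neither motif, which says only that these letters are missing from these 300 bases, and other starts of both genes were not read.

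In GM, no gene of the family passed either criterion. Of the 15 tested, 0 were higher, against 0.579% of all genes at the unadjusted criterion, and 0 were lower, against 0.322%, while 2 had p under 0.05 in limma, as had 6.83% of all genes. Pde4d, the most abundant, read 19.5, 23.5 and 28.3 FPKM in Ctrl and 25.01, 39.3 and 39.1 FPKM in LKO, with overlap and a difference of 0.50 ± 0.20 (SE, adjusted p = 0.695, limma). Pde4a read 18.4, 20.9 and 24.1 FPKM in Ctrl and 17.8, 15.0 and 15.4 FPKM in LKO, with no overlap (7.2% of all genes tested in this direction) and a difference of -0.37 ± 0.11 (SE, adjusted p = 0.59, limma). Pde4b differed by -0.19 ± 0.10 (SE, adjusted p = 0.78, limma). In 0 of the 15 did LKO lie above Ctrl without overlap (4.38% of all genes tested). Of 16 genes listed above 0 without passing the filter, Adcy1 and Pde3a lay above (3.5%) and 0 below (3.58%). The Pde4d share of the summed phosphodiesterase FPKM was 19.8%, 22.02% and 26.7% in Ctrl and 23.7%, 36.5% and 33.9% in LKO. Without Ctrl library 3, or without LKO library 1, Pde4d passed the unadjusted criterion, at 0.63 and 0.71, and without LKO library 2 Pde7b did, at -0.69.

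Pde3b, abundant in adipocytes, was low and uneven in GM. It read 1.25, 1.91 and 0.65 FPKM in Ctrl and 2.73, 0.55 and 0.84 FPKM in LKO. The 6 white adipocyte markers summed to 472.4, 542.7 and 242.5 FPKM in the Ctrl libraries and to 710.2, 269.2 and 307.9 FPKM in the LKO libraries, so that the library highest in both was LKO 1 and the 2 lowest in both were Ctrl 3 and LKO 2. Adcy5 was likewise highest in LKO library 1, at 1.83 FPKM against 0.50 to 0.93 FPKM in the other 5. Pde3b was tested in GM and did not differ between genotypes beyond the spread (-0.01 ± 0.35, SE). The part of adipocytes in these levels was not tested.

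In hypothalamus, 25 genes were tested and 0 passed either criterion in limma, against 0.166% of all genes higher and 0.166% lower at the unadjusted criterion, and a single gene, Adcy4, had p under 0.05, as had 3.72% of all genes. Pde1b read 65.6, 47.6 and 44.7 FPKM in Ctrl and 43.2, 45.9 and 46.4 FPKM in LKO, a difference of -0.20 ± 0.14 (SE). Pde2a and Adcy5 differed by -0.06 ± 0.10 and -0.07 ± 0.16 (SE), and all 3 had adjusted p above 0.99 by limma. Adcy4 read 2.01, 2.36 and 2.56 FPKM in Ctrl and 1.79, 1.71 and 1.73 FPKM in LKO, below the fold limit at -0.27, and 4 of the 8 endothelial markers were lower in every LKO library than in every Ctrl library, 0 being higher (4.97% and 4.74% of all genes tested). The summed level of the 8 markers overlapped, at 61.5, 59.7 and 71.5 FPKM in Ctrl and 61.2, 52.3 and 54.7 FPKM in LKO, and the part of endothelial cells in the Adcy4 level was not tested. LKO lay below Ctrl without overlap in 2 of the 25, Adcy4 and Pde4a (4.97% of all genes tested), and above in 1, Adcy3 (4.74%). Of 9 genes listed above 0 without passing the filter, 0 lay above (3.46%) and 0 below (4.37%).

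Ctrl library 1 of the hypothalamus stood apart for many members, among them genes of the striatum, a nearby forebrain region. Pde10a, the phosphodiesterase of medium spiny neurons, read 11.6 FPKM there and 5.14 and 3.95 FPKM in the other Ctrl libraries, and 4.95, 5.55 and 5.76 FPKM in LKO. The 8 striatum markers summed to 332.0 FPKM in the same library, 246.1 and 268.7 FPKM in the other Ctrl libraries, and 228.6 to 234.2 FPKM in LKO. Ctrl library 3 had the highest striatum sum after library 1 and the lowest Pde10a. Pde1b, Adcy5, Adcy1 and Adcy8 were highest in Ctrl library 1 as well, at 65.6, 50.5, 6.38 and 10.4 FPKM. So were further members, among them Adcy2, Adcy7, Adcy9, Pde1a, Pde2a, Pde4b and Pde8a, so the shift was not limited to striatum genes. The 9 hypothalamus markers summed to 1941 FPKM there, 2578 and 2522 FPKM in the other Ctrl libraries, and 2466 to 2676 FPKM in LKO. Without Ctrl library 1, the differences of Pde2a and Adcy5 turned to 0.04 and 0.12. Pde7a, named after its values were seen, was low in LKO library 1 alone, at 1.54 FPKM against 5.24 to 5.77 FPKM in the other 5 (-0.49 ± 0.34, SE, adjusted p above 0.99, limma). Pituitary markers summed to 703.0 FPKM in the same library, 218.5 and 179.3 FPKM in the other LKO libraries and 87.1 to 129.4 FPKM in Ctrl, and their part in the Pde7a level was not tested.

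Pde4d was called in liver, where it was tested only through the LKO libraries and was lost with both other scalings, and in iWAT by the unadjusted criterion alone. It differed by 0.82 (liver), 0.90 (iWAT), 0.50 (GM) and -0.08 (hypothalamus). Whether a difference depended on the tissue was tested with an interaction term in 1 fit of 24 libraries, which passed an adjusted p of 0.05 in 8 of 27 genes of the family, against 33.5% of all 15849 genes tested, a share near that of the family. Without liver Ctrl library 1, 2 or 3 in turn, 4, 4 and 5 of the 27 passed, beside 27.6%, 24.99% and 24.6% of all genes in the same fits. Pde9a had the smallest adjusted p, 7.9e-07 in limma, with -1.40 (liver), 0.34 (iWAT), 0.033 (GM) and -0.0018 (hypothalamus). Adcy7 was 0.88 in liver and -0.43 in iWAT, where its Ctrl libraries were far apart and where, without Ctrl library 1, it passed the unadjusted criterion at -0.67.

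The other genes of the pathway, 97 listed and 95 in the table, were counted in the same way. In liver 53 were tested, and 14 were higher and 3 lower past the unadjusted criterion, with 13 and 3 past the adjusted one. This is 26.4% and 5.66% of the 53 at the unadjusted criterion, beside 25.2% and 3.75% of all genes. Of the 14 that were higher, 4 had no Ctrl library at 1 FPKM and were tested only through the LKO livers, namely Abcc4, Abcc5, Fos and Rgs2. Of the 5 tested genes of G proteins and their regulators, 3 were higher by the adjusted criterion, namely the inhibitory subunits Gnai2 and Gnai3, and Rgs2, a regulator of G protein signalling and one of those tested only through the LKO livers. Among all genes tested, 23.9% were higher by that criterion. These 3, and the receptors and G6pc below, were named after their values were seen. The largest differences among the pathway genes in liver were those of Pdk4, at 4.37, 2.19 and 2.47 FPKM in Ctrl and 19.6, 102.3 and 171.3 FPKM in LKO (4.20 ± 0.71, SE, adjusted p = 0.0055, limma), and of Abcc4, which exports cAMP among other anions, at 0.33, 0.26 and 0.32 FPKM in Ctrl and 3.09, 9.52 and 22.2 FPKM in LKO (2.94 ± 0.55, SE, adjusted p = 0.0075, limma), with the limit just given for its Ctrl level. In both, LKO library 1 was the lowest of its group, as it was the least reduced for Pde9a.

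The immediate early genes Fos and Junb, which CREB is known to induce, followed in liver at 1.46 ± 0.14 and 1.39 ± 0.14 (SE, adjusted p = 9.7e-04 and 0.0013, limma). Fos read 0.17, 0.16 and 0.40 FPKM in Ctrl and 2.40, 1.98 and 2.91 FPKM in LKO, and was tested only through the LKO livers. Among transcripts known to respond to CREB, 6 of 11 tested were higher past the unadjusted criterion and 1, G6pc, was lower, where 25.2% and 3.75% of all genes were. In the receptors of the list, 1 of 7 tested was higher and 2 were lower by the adjusted criterion, beside 23.9% and 3.5% of all genes, the higher one being Adora1, which couples to the inhibitory G protein, and the lower ones Adrb3 and the natriuretic peptide receptor Npr2, which makes cGMP. Of the 2 guanylyl cyclase genes tested, 1 was higher by the adjusted criterion, beside 23.9% of all genes, and 0 were lower. It was Gucy1a3, named after its values were seen. None of the 5 protein kinase genes or the 8 genes of the CREB family and its coactivators passed in liver.

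In iWAT 5 of 69 tested pathway genes were higher past the unadjusted criterion (1.95% of all genes) and 0 were lower (1.29%), and 0 passed the adjusted one in limma. They included Pdk4 at 1.28 ± 0.17 and Pck1 at 1.21 ± 0.29, both known targets of cAMP signalling in fat, Rapgef3, the cAMP sensor of endothelial and other cells, at 0.96 ± 0.28, and Adora2a, a receptor coupled to the stimulatory G protein, at 0.86 ± 0.14 (SE, adjusted p from 0.088 to 0.20, limma). In GM 2 of 59 were higher (0.579% of all genes), Pdk4 at 2.15 ± 0.44 and Nr4a3 at 1.17 ± 0.39 (SE, adjusted p = 0.43 and 0.63, limma). Pdk4 read 58.3, 176.2 and 165.1 FPKM in the Ctrl muscles and 359.7, 690.4 and 609.6 FPKM in the LKO muscles. It was higher past the unadjusted criterion in liver, iWAT and GM. In hypothalamus 2 of 80 were lower (0.166% of all genes), Fos at -0.68 ± 0.08 and Nr4a1 at -0.63 ± 0.08 (SE, adjusted p = 0.13 and 0.17, limma). Fos read 27.2, 29.6 and 26.9 FPKM in Ctrl and 15.9, 18.9 and 16.6 FPKM in LKO, opposite in direction to liver.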

How the data were processed

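RNA-seq libraries (TruSeq RNA v2, which does not mark strand, 100 nt paired ends) were deposited as gene tables. The submitters' processing notes name FastQC 0.11.5, Trimmomatic 0.32, HISAT2 2.0.5, Bowtie2 2.2.6, STAR 2.5.2b and StringTie 1.3.3b on mm10, with no roles given. The deposited FPKM values, scaled by transcript length and library size, were made by the authors and were analysed here, the deposited TPM values served as an alternative, and the coverage (mean read depth per gene) that the authors deposited gave the depth of each library. No counts were used, so intervals from counting were not given. The rule for the members uses names alone, but the members and lists were chosen with earlier results of these data known.

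LKO was compared with Ctrl within each tissue by limma 3.58.1 in R 4.3.3 on log2(FPKM + 1), moderated with a trend and adjusted by Benjamini-Hochberg over all genes with at least 1 FPKM in 3 of 6 libraries. Ctrl tissues were fitted on 12 libraries and the interaction on all 24. The differences printed with an SE and p are those of members past the unadjusted criterion, of the 3 members highest in Ctrl per tissue, and of up to 4 pathway genes per tissue, except where a gene is said to have been chosen after its values were seen. The fit within tissues was tested on simulated data. All 34 genes lie at 1 place each. Pde2a and Pde4d hold microRNA genes and Pde3a a predicted gene on their strand, and Adcy3, Pde4a and Pde5a overlap a gene on the other strand, whose reads cannot be told apart. The same-numbered libraries of Ctrl and LKO did not deviate together in every pair (lowest r per tissue from -0.13 to 0.05), so replicate numbers were not used for pairing. The highest r per tissue ran from 0.14 to 0.35, and from 0.16 to 0.30 between libraries of other numbers. Between tissues, same-numbered libraries had r from -0.11 to 0.23 in Ctrl and from -0.09 to 0.24 in LKO. Other numbers reached 0.09 and 0.19. These values do not settle whether tissues shared mice, and the fits over several tissues took the libraries as independent.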

Additional observations from a re-analysis of the deposited data

Results flagged for a closer look

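The difference between LKO and Ctrl depended on the tissue, by the interaction test over 24 libraries, in 8 of the 27 members tested, a share close to the 33.5% of all genes for which it did. The adjusted p was 7.89e-07 for Pde9a, which was lower in liver alone, 0.00144 for Adcy4, highest in iWAT and below 0 in hypothalamus, and 0.0118 for Pde4a, above 0 in liver and lowest in GM. It was 0.016 for Pde4d, above 0 in liver, iWAT and GM. It was 0.0225 for Pde1a, 0.0262 for Pde1b, 0.0321 for Adcy7 and 0.0347 for Pde6d, in each of which liver had the largest difference. Pde1a and Pde1b did not pass the filter within liver, where no Ctrl library and 2 LKO libraries reached 1 FPKM, and entered this test through the other tissues. Macrophage markers in liver and endothelial markers in iWAT were higher in the LKO libraries, and their part in these 8 results was not tested.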

How the results depend on the processing

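In liver 4 members passed unadjusted and 3 adjusted. With the deposited TPM 7 and 7 of 18 tested did. There, 37.8% of all genes were higher and 3.07% lower by the unadjusted criterion and 36.9% and 2.88% by the adjusted one. At a 2-fold limit 1 and 1 did, beside 8.37% and 1.58% of all genes unadjusted and 8.21% and 1.52% adjusted. With 1 library left out, 3 to 5 passed by either criterion, with 5 adjusted without LKO library 1. The shares of all genes then ran from 17.8% to 34.8% higher and 3.1% to 4.76% lower unadjusted. By the adjusted criterion they ran from 14.0% to 34.7% and from 2.46% to 4.75%. In iWAT 4 passed unadjusted and 0 adjusted. At a 2-fold limit 0 passed unadjusted, beside 0.382% of all genes higher and 0.187% lower. With all 24 libraries in 1 fit 4 passed adjusted, beside 1.64% of all genes higher and 0.92% lower. Leaving out 1 library gave 2 to 6 and 0 to 1. Of all genes, 1.43% to 3.15% were then higher and 1.04% to 3.12% lower unadjusted, and at most 0.635% and 0.26% adjusted. In GM 0 became 0 to 1 when 1 library was left out, beside 0.469% to 0.754% of all genes higher and 0.202% to 1.18% lower unadjusted. With a replicate block the counts were 4 and 3 in liver, 4 and 0 in iWAT, and 0 in GM and hypothalamus, with 7 pathway genes in iWAT. In that fit 25.4% of all genes were higher and 3.87% lower unadjusted in liver, and 2.16% and 1.37% in iWAT. The interaction, 8 members beside 33.5% of all genes, gave 9 with the replicate block (31.55% of all genes). It gave 12 on log2(FPKM + 0.1) (33.7%) and 6 with median-ratio scaling (23.7%). When 1 library was left out it gave 4 to 11, beside 22.6% to 45.5% of all genes. The 13 tissue calls gave 12 to 13. Pathway genes past the unadjusted criterion in liver, 17, were 29 with TPM and 10 with quantile normalization. All genes moved as well, to 37.8% higher and 3.07% lower with TPM and to 9.47% and 7.99% with quantile normalization. In iWAT, 5 became 9 with TPM (2.93% of all genes higher and 1.32% lower) and 3 with ordinary variances (1.52% and 0.773%). With all 24 libraries in 1 fit they became 9 (2.14% and 1.56%). Without the 2 libraries with most muscle transcripts, chosen after seeing the data, they became 8 (1.93% and 2.64%). Leaving out 1 library gave 4 to 12, beside the shares given above for iWAT. In GM, 2 became 1 with ordinary variances (0.386% of all genes higher and 0.138% lower). Leaving out 1 library gave 1 to 3, beside the shares given above for GM. Pde4c in liver turned to -0.17 with median-ratio scaling and -0.11 with quantile normalization, and Pde2a and Adcy5 in hypothalamus to 0.042 and 0.12 without Ctrl library 1, with ranges of -0.15 to 0.042 and -0.20 to 0.12 when 1 library was left out. The 8 called pairs of gene and tissue kept their direction under every alternative run. The cause of these moves was not tested. Within a tissue, LKO was compared with Ctrl by test in genes with 3 or more libraries at 1 FPKM, while the interaction and the Ctrl tissue contrasts also took in tissues below that level.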
